A study of Mus musculus with 12 samples.

Results

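The expression of 8 CXC chemokine genes was followed through the transcriptome of mouse bone marrow-derived macrophages (BMDMs). They were the rows of the deposited expression tables named Cxcl1, Cxcl2, Cxcl3, Cxcl9, Cxcl10, Cxcl11, Cxcl14 and Cxcl16. Each name matched 1 row, so 8 of the 23847 rows of each table were used, and all 8 were among the 11191 rows that reached 1 FPKM (sequenced fragments scaled by transcript length and by the mapped total of the sample) in at least 1 sample. The cells were wild-type macrophages grown for 6 days from the marrow of mice aged 8 to 12 weeks, in L929 cell supernatant as the source of the macrophage growth factor MCSF. Cells of the control group received no further stimulus, the IL-4 group had IL-4 at 20 ng/ml for 24 h, the LPS group had LPS for 3 h, and the IL-4+LPS group had the IL-4 pretreatment followed by LPS. The LPS dose is 100 ng/ml in the labels, while the methods text gives it in another unit. Each of the 4 groups held 3 samples, 12 in all. The methods place the mice on the C57BL/6 background. The study's figure legend for the LPS-activated genes names 3 individual animals from more than 1 independent experiment. The labels do not say which samples share an animal or an experiment, so p-values measure the spread between these samples only.

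CXC chemokines are small secreted proteins named after a pair of cysteines set apart by a single residue. Cxcl1, Cxcl2 and Cxcl3 carry the glutamate-leucine-arginine motif in front of these cysteines and act on CXCR2, the receptor that draws neutrophils into inflamed tissue. Cxcl9, Cxcl10 and Cxcl11 lack that motif, are classical interferon-induced genes and act on CXCR3, found on activated T cells and natural killer cells. Cxcl16 is made as a membrane-bound protein that binds CXCR6 and is shed by ADAM proteases, and Cxcl14 is a homeostatic chemokine of epithelial and other tissues. Macrophages that sense LPS through Toll-like receptor 4 switch on the first kind largely through NF-kB and the second through NF-kB together with interferon-induced factors, while IL-4 acts through STAT6.

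On chromosome 5 lie 6 of the 8 members, in 2 groups that match the 2 kinds. In mm10, Cxcl3 (chr5:90786103-90788090), Cxcl1 (chr5:90891245-90893115) and Cxcl2 (chr5:90903899-90905938) are transcribed from the plus strand within 119836 bases. Cxcl9 (chr5:92321331-92328079), Cxcl10 (chr5:92346639-92348889) and Cxcl11 (chr5:92359545-92363296) are transcribed from the minus strand within 41966 bases, and 1415392 bases separate the 2 groups. Cxcl14 (chr13:56288643-56296551) and Cxcl16 (chr11:70454234-70459984), both on the minus strand, stand alone. All are annotated as protein coding in GENCODE vM21 except Cxcl11, a polymorphic pseudogene there, since the C57BL/6 reference allele carries a frameshift. Its values are therefore levels of a transcript that is not expected to give the full chemokine in these mice.

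Promoter sequences were available for 6 of the 8 members (RefSeq, GRCm38.p6, the patch release of mm10) and are shown for the 5 of these that rose with LPS, so that the letters upstream can be set beside the responses. Cxcl11 and Cxcl16 were not matched. Each run covers the bases from 250 to 31 before the RefSeq start, 5′ to 3′ on the gene's strand, and capitals mark matches to the kappaB consensus, the binding sequence of NF-kB, or to GAAANNGAAA, the core of the interferon-stimulated response element (ISRE), on either strand.
Cxcl1, chr5:90890995-90891214, plus strand: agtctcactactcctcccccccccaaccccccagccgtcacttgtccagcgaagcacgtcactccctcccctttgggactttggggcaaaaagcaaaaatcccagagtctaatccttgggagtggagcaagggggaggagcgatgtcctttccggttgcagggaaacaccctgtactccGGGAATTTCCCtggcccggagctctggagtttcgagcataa
Cxcl2, chr5:90903649-90903868, plus strand: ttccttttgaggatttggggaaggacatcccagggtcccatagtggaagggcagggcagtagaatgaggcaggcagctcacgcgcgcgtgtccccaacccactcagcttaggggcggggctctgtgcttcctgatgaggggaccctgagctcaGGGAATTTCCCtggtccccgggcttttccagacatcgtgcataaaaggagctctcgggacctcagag
Cxcl3, chr5:90785851-90786070, plus strand: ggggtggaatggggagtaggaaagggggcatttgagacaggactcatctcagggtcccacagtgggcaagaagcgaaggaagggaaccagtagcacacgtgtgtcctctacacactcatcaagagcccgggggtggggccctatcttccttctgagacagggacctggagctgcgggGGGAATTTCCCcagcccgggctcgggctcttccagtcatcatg
Cxcl9, chr5:92328110-92328329, minus strand: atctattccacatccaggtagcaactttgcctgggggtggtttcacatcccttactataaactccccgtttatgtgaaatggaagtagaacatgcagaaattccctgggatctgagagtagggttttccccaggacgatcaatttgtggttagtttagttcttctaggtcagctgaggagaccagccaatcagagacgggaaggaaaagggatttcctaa
Cxcl10, chr5:92348920-92349139, minus strand: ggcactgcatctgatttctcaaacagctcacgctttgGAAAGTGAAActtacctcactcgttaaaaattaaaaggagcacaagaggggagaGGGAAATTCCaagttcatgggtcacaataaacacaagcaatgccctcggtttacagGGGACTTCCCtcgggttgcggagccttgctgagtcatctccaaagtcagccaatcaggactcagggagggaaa

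The 3 neutrophil-attracting members shared 2 overlapping kappaB matches of the same letters, GGGAATTTCC and, 1 base further on, GGAATTTCCC, so the capitals run over 11 bases. The first of them began 71 bases before the start in Cxcl1, 97 in Cxcl2 and 73 in Cxcl3, and none of these windows held GAAANNGAAA. In Cxcl10 the window held 2 kappaB matches, GGGAAATTCC at 159 and GGGACTTCCC at 103 bases before the start, and the ISRE core GAAAGTGAAA at 213. Neither motif was matched in the Cxcl9 window. Among all 32851 promoters of the same length, 3.45% held a kappaB match and 2.63% held GAAANNGAAA. The Cxcl14 window, of a gene with no called response to LPS, held GAAACAGAAA at 172 and no kappaB match. A spacing bound by STAT6, TTCNNNNGAA, was matched in none of the 6 windows and in 5.22% of all promoters. A match is a run of letters and not a measured binding site.

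Sample totals were alike, between 457583 and 495025 summed FPKM. Sequencing depth relative to the first control sample, read from the steps between the lowest values, ran from 0.99 to 3.29, and the samples numbered 1 were between 0.99 and 1.03 in every group. These 4 samples also lay on one side of the first principal component of the deviations from the group means, which held 28.2% of that variance, with scores from 15.5 to 33.3 against -18.6 to -4.45 in the other 8 samples. Results that turn on them are therefore given with and without the samples numbered 1. Macrophage markers (6 of 6 found) summed to 19200 to 20500 FPKM in control, 7560 to 7770 after IL-4, 15400 to 16600 after LPS and 6550 to 6930 in IL-4+LPS. Most of that sum was Lyz2, at 15344 to 16507 FPKM in control and 4734 to 5051 after IL-4. Of the 6 markers 5 were called lower with IL-4, all but Cd68 (-0.21), and between IL-4+LPS and LPS 4 were lower and Mertk was higher (0.79, adjusted p = 0.00614). Of all rows, 21.0% were called lower with IL-4, and 15.8% lower and 15.0% higher between IL-4+LPS and LPS. All 4 T cell markers, all 5 fibroblast markers and all 3 epithelial markers stayed under 1 FPKM in every sample. Neutrophil markers (6 of 7 found) summed to 75.8 to 165 FPKM in control, 28.9 to 74.9 after IL-4, 85.1 to 203 after LPS and 61.9 to 143 in IL-4+LPS. Ltf and Ngp were called lower with IL-4 (-1.2 and -1.4, adjusted p of 0.00963 and 0.0249). Camp, Ltf and Ngp were higher in IL-4+LPS than in IL-4, where 15.0% of all rows were. None was called between IL-4+LPS and LPS. For Mpo, Elane, Camp, Ltf and Ngp the sample numbered 1 was the lowest of its group in every group. B cell markers (4 of 4) summed to 0.753 to 1.04 FPKM in LPS and 2.11 to 4.36 in IL-4+LPS, where Cd79b was higher (1.29, adjusted p = 0.000946). Dendritic cell markers (4 of 4) summed to 0.866 to 1.38 FPKM in LPS and 2.51 to 3.13 in IL-4+LPS, where Zbtb46 was higher (1.16, adjusted p = 5.47e-05). Endothelial markers (3 of 3) summed to 2.01 to 3.18 and 1.56 to 2.20 FPKM in these groups, where Kdr was lower (-0.61, adjusted p = 0.0188). The part of these markers in the results below was not tested.

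At rest, Cxcl16 was the only member of the 8 at a high level. Its 3 control samples had 87.2, 78.4 and 75.5 FPKM, a mean of 80.4 ± 6.09 FPKM (SD, n = 3), apart from all other members. Cxcl2 followed with 4.93 ± 0.89 FPKM (SD, n = 3) and Cxcl10 with 3.74 ± 1.19 FPKM (SD, n = 3), and these 2 overlapped. Cxcl14, Cxcl1 and Cxcl3 had means of 1.06, 0.945 and 0.626 FPKM with overlapping ranges. Cxcl9 reached at most 0.369 FPKM, and Cxcl11 was listed at 0 in 2 of the 3 control samples and at 0.0602 in the remaining one. Of the 96 member values, 8 were listed at 0, 5 of them for Cxcl11, and at this depth a low level cannot be told from none. As these are bulk samples, fewer cells of a type and less RNA per cell cannot be told apart.

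**Figure D1:**
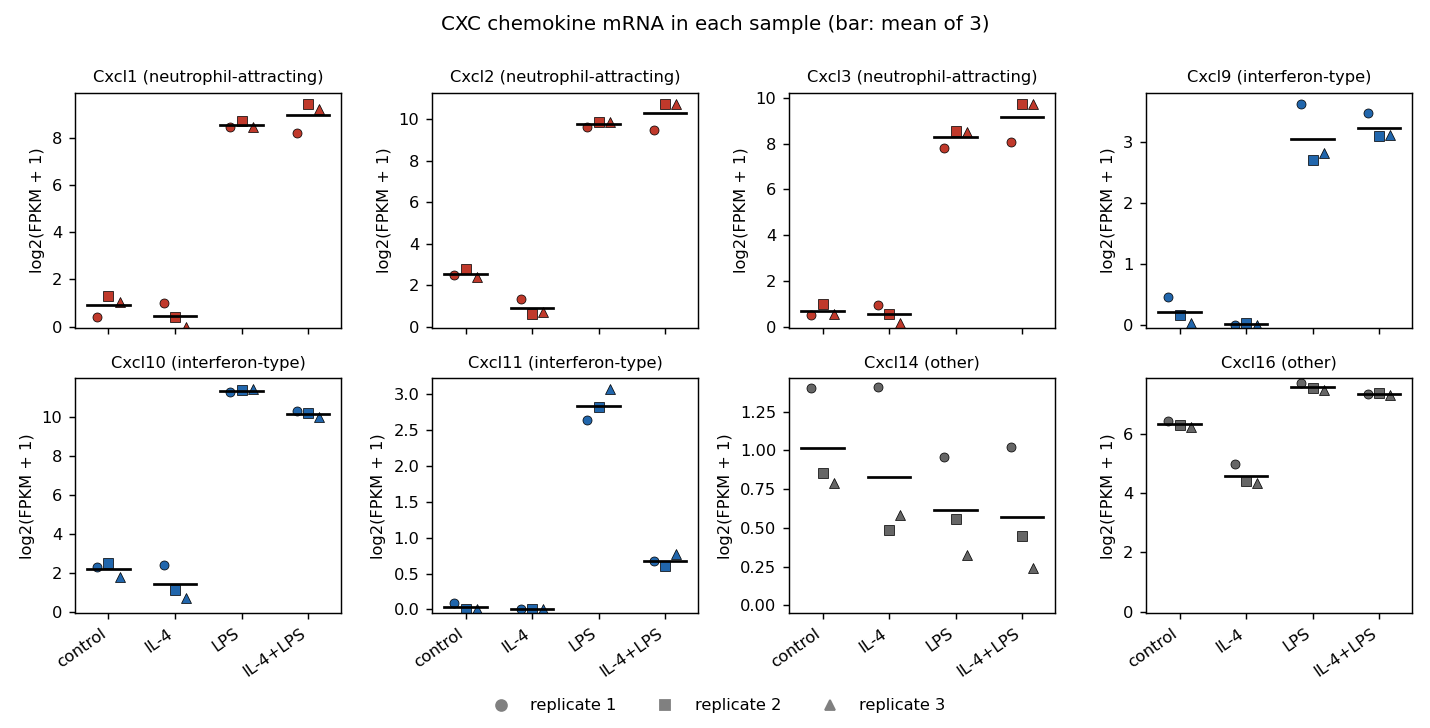
Expression of the 8 CXC chemokine genes in each of the 12 samples, as log2(FPKM + 1) on the vertical axis, with 1 panel per gene and its own scale; symbols mark the replicate number and the bar is the mean of 3 samples. All members but Cxcl14 were higher with LPS than without it, Cxcl11 only to under 1 FPKM after the pretreatment, Cxcl10 and Cxcl11 were lower with the pretreatment than with LPS alone, and in IL-4+LPS the sample numbered 1 lay below the other two for Cxcl1, Cxcl2 and Cxcl3.

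The first comparison asked how LPS alone acts on the family. Of the 8 members 7 rose (limma on log2(FPKM + 1), Benjamini-Hochberg adjusted p under 0.05), against a background of 16.9% of all tested rows called higher and 57.7% called lower. With median scaling that split was 26.5% higher and 39.8% lower, and with quantile normalisation 25.9 and 38.7%, and 7 members rose under both. Each member of both kinds rose, and Cxcl10 reached the highest level. The median of all rows was -0.44 log2 in this contrast.

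Cxcl1, a ligand of CXCR2, had 0.335, 1.42 and 1.08 FPKM in control and 354, 419 and 347 in LPS. Cxcl2, another CXCR2 ligand and long known as a macrophage inflammatory protein, went from 4.54, 5.94 and 4.30 FPKM to 787, 936 and 948. Cxcl3 went from 0.411, 0.999 and 0.467 FPKM to 219.6, 368 and 357. In all 3 the groups were apart, as were those of 17.9% of all rows in this direction, and the ratio of mean FPKM was 395 for Cxcl1, 181 for Cxcl2 and 503 for Cxcl3. The differences on the log2(FPKM + 1) scale were 7.63 ± 0.35 (SE) for Cxcl1, 7.24 ± 0.31 for Cxcl2 and 7.58 ± 0.41 for Cxcl3, with adjusted p of 2.66e-08, 1.83e-08 and 9.08e-08. After LPS, Cxcl2 stood above the other 2 in every sample, while the ranges of Cxcl1 and Cxcl3 overlapped.

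Cxcl10, the CXCR3 ligand also called IP-10, gave the highest level of any member. It had 3.99, 4.79 and 2.45 FPKM in control and 2429.6, 2602 and 2749 in LPS, a ratio of means of 693 and a difference of 9.13 ± 0.35 log2 (SE, adjusted p = 9.63e-09). Its 2 neighbours on chromosome 5 rose as well (differences of 2.84 ± 0.22 for Cxcl9 and 2.81 ± 0.11 for Cxcl11, adjusted p of 9.35e-07 and 9.44e-09) but stayed at far lower levels. Cxcl9 had 11.4, 5.55 and 6.09 FPKM in LPS, where the sample numbered 1 was the highest, and Cxcl11 had 5.19, 6.04 and 7.35. On this scale the pseudocount of 1 compresses both, since their control values were close to 0. Art3, a gene on the opposite strand that spans Cxcl10 and Cxcl11, did not exceed 0.0593 FPKM, and reads of the 2 strands cannot be told apart in these unstranded libraries. Gm2673, a processed pseudogene annotated over 1582 bases of Cxcl11 on the opposite strand, was not among the rows used here, so its level is unknown.

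Cxcl16, the membrane-bound ligand of CXCR6, rose from 87.2, 78.4 and 75.5 FPKM to 209.9, 188 and 178, a ratio of 2.39 (difference 1.25 ± 0.15 log2, SE, adjusted p = 1.98e-05). The groups were apart. Zmynd15, which overlaps 552 bases of it on the opposite strand, did not exceed 5.3 FPKM. Cxcl14 had 1.64, 0.805 and 0.730 FPKM in control and 0.943, 0.471 and 0.250 in LPS, and these ranges overlapped. Its difference of -0.40 did not pass (95% interval -1.05 to 0.25, adjusted p = 0.234), and its direction turned when the samples were quantile normalised. With the samples numbered 1 left out it was called lower (-0.38, adjusted p = 0.0164), as were 62.8% of rows.

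IL-4 alone addressed the state in which LPS finds the pretreated cells. Of the 8 members 2 fell, Cxcl2 and Cxcl16, and none rose, against a background of 21.0% of rows called lower and 16.0% called higher. Cxcl2 had 1.52, 0.532 and 0.651 FPKM after IL-4, each below the lowest control value (difference -1.67 ± 0.31 log2, SE, adjusted p = 0.0021). Cxcl16 had 30.8, 20.4 and 19.5 FPKM, likewise apart from control (difference -1.75 ± 0.15, SE, adjusted p = 8.68e-06). Cxcl9 was apart as well but not called, with at least 0.0187 FPKM in control and at most 0.0173 after IL-4. Groups apart in this direction were found for 29.5% of all rows.

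Cxcl10 had 4.30, 1.20 and 0.639 FPKM after IL-4 and overlapped control because of the sample numbered 1. Its difference of -0.79 did not pass (95% interval -1.57 to -0.013, adjusted p = 0.105) but passed without IL-4 replicate 1, at -1.29 (adjusted p = 0.00136). With the samples numbered 1 left out of all groups, 4 members were called lower, Cxcl1, Cxcl2, Cxcl10 and Cxcl16, against 29.4% of all rows. The other intervals reached from -1.22 to 0.32 for Cxcl1, -1.05 to 0.79 for Cxcl3 and -0.84 to 0.46 for Cxcl14. For Cxcl9 and Cxcl11 control and IL-4 levels were both close to 0, and Cxcl11 was listed at 0 in all 3 IL-4 samples.

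**Figure D2:**
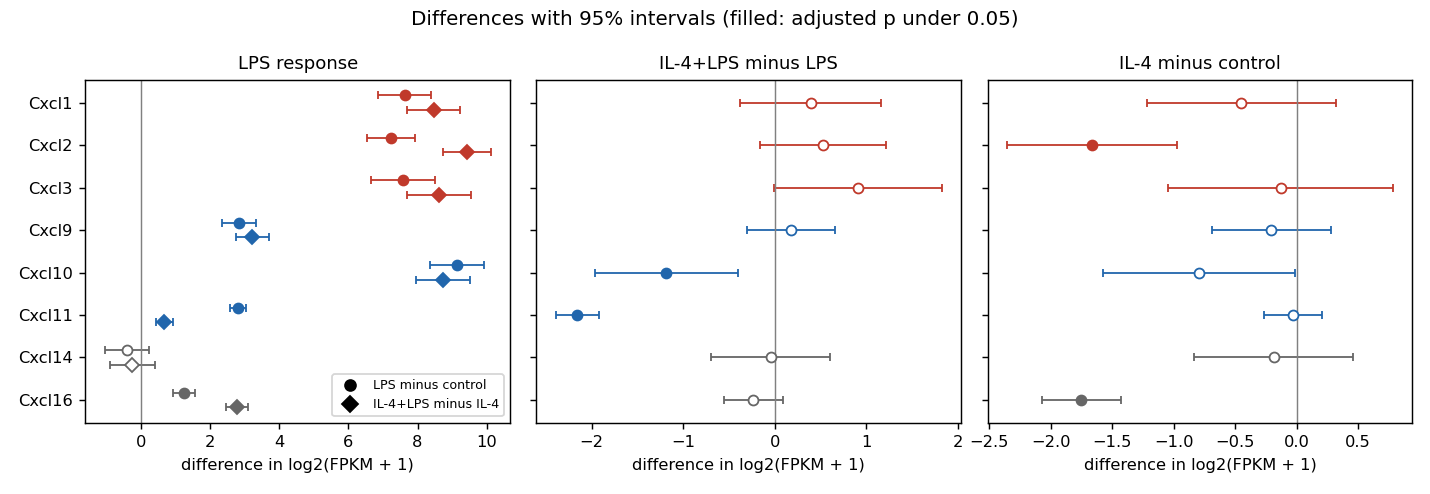
Differences between groups for each member in log2(FPKM + 1), with 95% intervals from limma over 12 samples; filled symbols have an adjusted p under 0.05, red marks neutrophil-attracting, blue interferon-type and grey other members. Cxcl10 and Cxcl11 lie below 0 in IL-4+LPS minus LPS while Cxcl1, Cxcl2 and Cxcl3 lie above it without passing, and Cxcl2 and Cxcl16 lie below 0 in IL-4 minus control.

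LPS also raised 7 of the 8 members in cells pretreated with IL-4, against 15.0% of rows called higher and 57.9% called lower. That split was 23.5 and 36.3% with median scaling and 22.0 and 37.3% with quantile normalisation, and the median of all rows was -0.41 log2. Differences from IL-4 alone were 8.47 ± 0.35 for Cxcl1, 9.43 ± 0.31 for Cxcl2, 8.63 ± 0.41 for Cxcl3 and 8.74 ± 0.35 for Cxcl10 (SE). Cxcl9 rose by 3.23 ± 0.22, Cxcl16 by 2.77 ± 0.15 and Cxcl11 by 0.68 ± 0.11 (adjusted p = 0.000194). Cxcl14 did not pass (difference -0.26, 95% interval -0.91 to 0.39, adjusted p = 0.446).

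Setting IL-4+LPS against LPS asked what the pretreatment leaves of each response. Cxcl10 and Cxcl11 were lower, Cxcl9 was not called, and the neutrophil-attracting members had higher means with a wide spread. Of the 8 members 2 were called, Cxcl10 and Cxcl11, both lower, against a background of 15.8% of rows called lower and 15.0% called higher. All 3 samples of IL-4+LPS were below all 3 of LPS for Cxcl10, Cxcl11 and Cxcl16, as for 21.8% of all rows.

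Cxcl10 had 1245, 1157 and 1027 FPKM after the pretreatment, all far below the LPS samples. The mean was 2.27-fold lower (1143 ± 109 against 2594 ± 160.03 FPKM, SD, n = 3 each) and the difference was -1.18 ± 0.35 log2 (SE, adjusted p = 0.0271). That call was lost in 5 of the 12 fits that leave out 1 sample (any LPS replicate, or IL-4+LPS replicate 2 or 3), with adjusted p from 0.0535 to 0.0829 there and a difference between -1.25 and -1.11 over all 12. With the samples numbered 1 left out, Cxcl10 was called (-1.29, adjusted p = 0.00623).

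Among the 8 members Cxcl11 had the largest difference. Its 3 values were 0.599, 0.515 and 0.701 FPKM against 5.19, 6.04 and 7.35 in LPS, a 10.2-fold lower mean (difference -2.16 ± 0.11, SE, adjusted p = 2.75e-07). This call held in every one of the 12 fits. Cxcl9, the third CXCR3 ligand, had 10.1, 7.58 and 7.72 FPKM against 11.4, 5.55 and 6.09, and its ranges overlapped (difference 0.18, 95% interval -0.30 to 0.66, adjusted p = 0.584). It was called higher without LPS replicate 1 (0.47, adjusted p = 0.042), the sample in which Cxcl9 was highest.

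For the neutrophil-attracting members the IL-4+LPS sample numbered 1 and the other 2 stood apart. Cxcl1 had 289, 684 and 594 FPKM in IL-4+LPS, where the LPS samples lay between 347 and 419. Cxcl2 had 716, 1686 and 1736 FPKM against 787 to 948, and Cxcl3 had 269, 846 and 848 against 219.6 to 368. In each, replicates 2 and 3 were above every LPS sample and replicate 1 was below or inside the LPS range. None of the 3 passed with all samples. The differences were 0.40 for Cxcl1 (95% interval -0.37 to 1.17, adjusted p = 0.433), 0.53 for Cxcl2 (-0.16 to 1.22, 0.237) and 0.91 for Cxcl3 (-0.0041 to 1.83, 0.124).

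For Cxcl2 and Cxcl3 the call rests on 1 sample. Without IL-4+LPS replicate 1, Cxcl2 and Cxcl3 were called higher (differences of 0.95 and 1.46), with 15.0% of rows called higher and 18.4% lower in that fit, while Cxcl1 at 0.78 was not (adjusted p = 0.0742). With the samples numbered 1 left out of all 4 groups, Cxcl1, Cxcl2 and Cxcl3 were all called higher, at 0.74, 0.86 and 1.22 with adjusted p of 0.0104, 0.00152 and 0.00158, and Cxcl9 at 0.34 (0.011), against 21.0% of rows called higher. In that fit the members called lower were Cxcl10, Cxcl11 and Cxcl16, against 25.9% of rows. The samples numbered 1 also had the 4 lowest relative depths, and the part of depth in these differences was not tested.

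Cxcl16 had 164, 165 and 159.6 FPKM after IL-4 and LPS, each under the lowest LPS value of 178. The difference of -0.23 did not pass (95% interval -0.55 to 0.090, adjusted p = 0.263). Without IL-4 replicate 1, a sample of neither group, it passed (adjusted p = 0.0438) although the difference stayed at -0.23. As given above, it also passed with the samples numbered 1 left out (-0.17, adjusted p = 0.0267). Cxcl14 stayed near 1 FPKM or under it in both groups (difference -0.042, 95% interval -0.69 to 0.61).

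Whether the LPS response itself was larger or smaller after IL-4 was read from the interaction, the response after IL-4 minus the response without it. In all, 3 members were called: Cxcl2 at 2.19 ± 0.44 log2 and Cxcl16 at 1.52 ± 0.21 were more responsive after IL-4, and Cxcl11 at -2.13 ± 0.15 was less (SE, adjusted p of 0.0116, 0.00139 and 3.08e-05). The background was 4.58% of rows called positive and 4.63% called negative. For both positive members, IL-4 alone had lowered the starting level, from a mean of 4.93 to 0.902 FPKM for Cxcl2 and from 80.4 to 23.6 FPKM for Cxcl16, and the level reached after LPS was not called different. In absolute terms the mean gain with LPS was 1379 FPKM after IL-4 and 885 without it for Cxcl2, and 139 against 112 FPKM for Cxcl16.

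The interaction of Cxcl10, -0.39, did not pass (95% interval -1.50 to 0.71, adjusted p = 0.697), and its mean before LPS was 2.04 FPKM after IL-4 against 3.74 without it. Its gain in FPKM after IL-4 was 0.441 times the gain without it, and that of Cxcl11 was 0.098 times. The same ratio was 1.40 for Cxcl1, 1.56 for Cxcl2, 2.08 for Cxcl3 and 1.13 for Cxcl9. Interactions for Cxcl1 (0.85), Cxcl3 (1.04) and Cxcl9 (0.38) did not pass with all samples, with adjusted p of 0.342, 0.323 and 0.512, and all 3 were called positive with the samples numbered 1 left out, where 13.2% of rows were. Cxcl3 was also called without IL-4+LPS replicate 1 alone (1.59).

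The make-up of the chemokine mRNA pool was followed through the summed levels. FPKM values are scaled by transcript length, so they may be summed over genes. In the 6 samples without LPS, the 8 members summed to between 21.4 and 98.5 FPKM and Cxcl16 with Cxcl14 made up 80.7 to 93.4% of that sum. LPS samples summed to between 4018 and 4592 FPKM, with 33.9 to 38.1% from Cxcl1, Cxcl2 and Cxcl3 and 57.8 to 60.9% from Cxcl9, Cxcl10 and Cxcl11. After IL-4 and LPS the sums were 2695, 4547 and 4374 FPKM, of which the neutrophil-attracting members gave 47.3, 70.7 and 72.7% and the interferon-type members 46.6, 25.6 and 23.7%. Of the interferon-type sum 99.1 to 99.6% was Cxcl10 in these 6 samples, so the share follows that gene and not Cxcl9 or Cxcl11. The 2 groups did not overlap in either share, and the sample numbered 1 was the closest to LPS. No test is given for these shares, since the members were chosen with results of these data known.

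**Figure D3:**
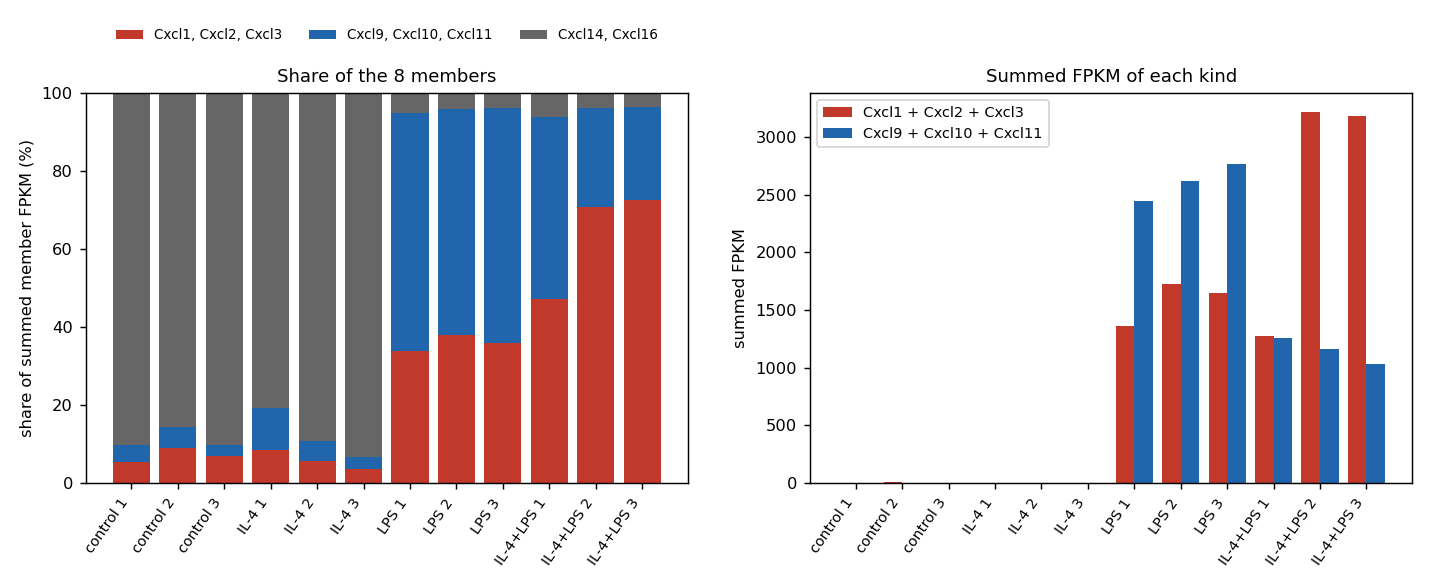
Left, the share in % of the summed FPKM of the 8 members that came from neutrophil-attracting (red), interferon-type (blue) and other members (grey) in each sample; right, the summed FPKM of the first 2 kinds on a linear axis. In LPS the interferon-type sum is the larger in all 3 samples, and in IL-4+LPS the neutrophil-attracting sum is the larger in all 3, by little in the sample numbered 1.

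The ratio of Cxcl10 to Cxcl2, which rests on the same gene, was 3.09, 2.78 and 2.90 in the LPS samples and 1.74, 0.686 and 0.592 in the IL-4+LPS samples. On the log2(FPKM + 1) scale, the mean of the 3 neutrophil-attracting members minus that of the 3 interferon-type members was 2.79, 3.41 and 3.17 in LPS and 3.77, 5.33 and 5.27 in IL-4+LPS. It was between 0.18 and 0.79 in control and between 0.057 and 0.30 in IL-4. This balance counts the 3 genes of a kind equally, so Cxcl11 weighs as much in it as Cxcl10.

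Other CXC chemokines were few. Of 7 further genes of the family, 6 were in the tables and 3 reached 1 FPKM. Pf4, or platelet factor 4, had 303 to 434 FPKM in control and fell with IL-4 to 94.8 to 107 FPKM (difference -1.85, adjusted p = 1.55e-06). After the pretreatment and LPS it stood at 136.5 to 161 FPKM against 470.3 to 499.8 in LPS alone (difference -1.69, adjusted p = 2.89e-06). In every control sample its level was above that of Cxcl16. Cxcl5, a further CXCR2 ligand from the same stretch of chromosome 5 as Cxcl3, rose with LPS to 0.833 to 1.52 FPKM (difference 1.07, adjusted p = 0.00135), and Ppbp did not pass in any contrast.

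Receptors for the 2 kinds were low. Of 7 receptors, 5 did not reach 1 FPKM in any sample, among them Cxcr2, which had at most 0.414 FPKM, and Cxcr6. Cxcr3, the receptor of Cxcl9, Cxcl10 and Cxcl11, had 2.84, 2.04 and 2.30 FPKM in control and fell with LPS (difference -1.31, adjusted p = 2.74e-06) and with IL-4 (-1.43, adjusted p = 7.87e-06). Cxcr4, the receptor of Cxcl12, fell from 46.8 to 63.7 FPKM in control to 0.902 to 1.30 in LPS (difference -4.70, adjusted p = 1.55e-08). Adam17 and Adam10, proteases that shed membrane-bound chemokines, moved in opposite directions with LPS, at 0.85 and -0.74 (adjusted p of 0.000115 and 0.000752), and neither was called between IL-4+LPS and LPS.

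The interferon branch was examined because Cxcl10 and Cxcl11 belong to it. All 12 listed interferon-stimulated genes rose with LPS, where 16.9% of all rows did (median difference 5.69 log2, over all rows -0.44). With IL-4 alone, 10 of the 12 were called lower and 1 higher, against 21.0 and 16.0% of all rows. The median difference there was -0.98, over all rows -0.049. Between IL-4+LPS and LPS, 2 of the 12 were called, Mx2 and Isg20, both lower by less than 0.5 log2 (adjusted p of 0.0319 and 0.0106), and the median difference was -0.10, over all rows -0.031. That count is close to the background, 15.8% of all rows being called lower. Isg15, for example, had 755, 958 and 907 FPKM in LPS and 783.5, 1141 and 1032 in IL-4+LPS. Ifit3 came nearest to Cxcl10, at -1.17, but did not pass (adjusted p = 0.0854). With the samples numbered 1 left out, 3 of the 12 were lower and 1 higher, against 25.9 and 21.0% of all rows.

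Of 12 genes of type I interferon and its signal, 10 rose and 2 fell with LPS, against 16.9 and 57.7% of all rows. The median difference was 0.82 log2, over all rows -0.44. With IL-4 alone, 5 of the 12 were called lower and 1 higher, against 21.0 and 16.0% of all rows. Ifnb1, the interferon that macrophages make early after LPS, had 3.13, 2.14 and 2.05 FPKM in LPS and 2.07, 10.7 and 10.6 in IL-4+LPS, where the sample numbered 1 again stood apart and the difference of 1.13 did not pass (adjusted p = 0.0616). Irf1 and Irf8, transcription factors of the interferon response, were higher after the pretreatment, by 0.80 and 2.42 log2 (adjusted p of 0.00235 and 1.57e-06), while Ifnar2, Jak1 and Irf3 were lower by less than 0.5, against 15.0% of all rows called higher and 15.8% lower. Irf7 was not called, with 167 to 177 FPKM in LPS and 110 to 124 in IL-4+LPS. In the fit without the samples numbered 1, 5 of the 12 were called higher and 3 lower, against 21.0 and 25.9% of all rows. The called genes of this list moved in both directions. Irf1 and Irf8 went opposite to Cxcl10 and Cxcl11, and Ifnar2, Jak1 and Irf3 went the same way as these. The part of these genes in the levels of Cxcl10 and Cxcl11 was not tested.

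Genes of the NF-kB branch served the same purpose for the neutrophil-attracting members. All 11 NF-kB subunits and regulators and all 8 early inflammatory genes rose with LPS (medians 2.91 and 6.09), where 16.9% of all rows did. With IL-4 alone, 7 of the 11 were called lower and none higher. Of the 8, 1 was lower and 1 higher, against 21.0% of all rows called lower and 16.0% higher. In IL-4+LPS against LPS, Rel was higher and Relb lower among the 11, and Il6 and Ier3 were higher among the 8, against 15.0% of all rows called higher and 15.8% lower. Il6 had 48.8, 71.9 and 78.1 FPKM in LPS and 163, 355 and 447 in IL-4+LPS (difference 2.17, adjusted p = 0.000525). Tnf had 1313, 1416 and 1357 FPKM against 1393, 2365 and 2346, with replicates 2 and 3 far above LPS and replicate 1 near it, as for Cxcl1 to Cxcl3 (difference 0.54, adjusted p = 0.0744). Other genes of that list went the other way in mean FPKM from LPS to IL-4+LPS, without a call. Il1b went from 1916 to 1765, Ccl3 from 2140 to 1673 and Ccl4 from 3214 to 2293. Means of Il1a and Ptgs2 were higher in IL-4+LPS, also without a call. With the samples numbered 1 left out, 5 of the 8 early inflammatory genes were called higher and none lower, and 3 of the 11 NF-kB genes were higher and 5 lower, against 21.0% of all rows called higher and 25.9% lower.

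**Figure D4:**
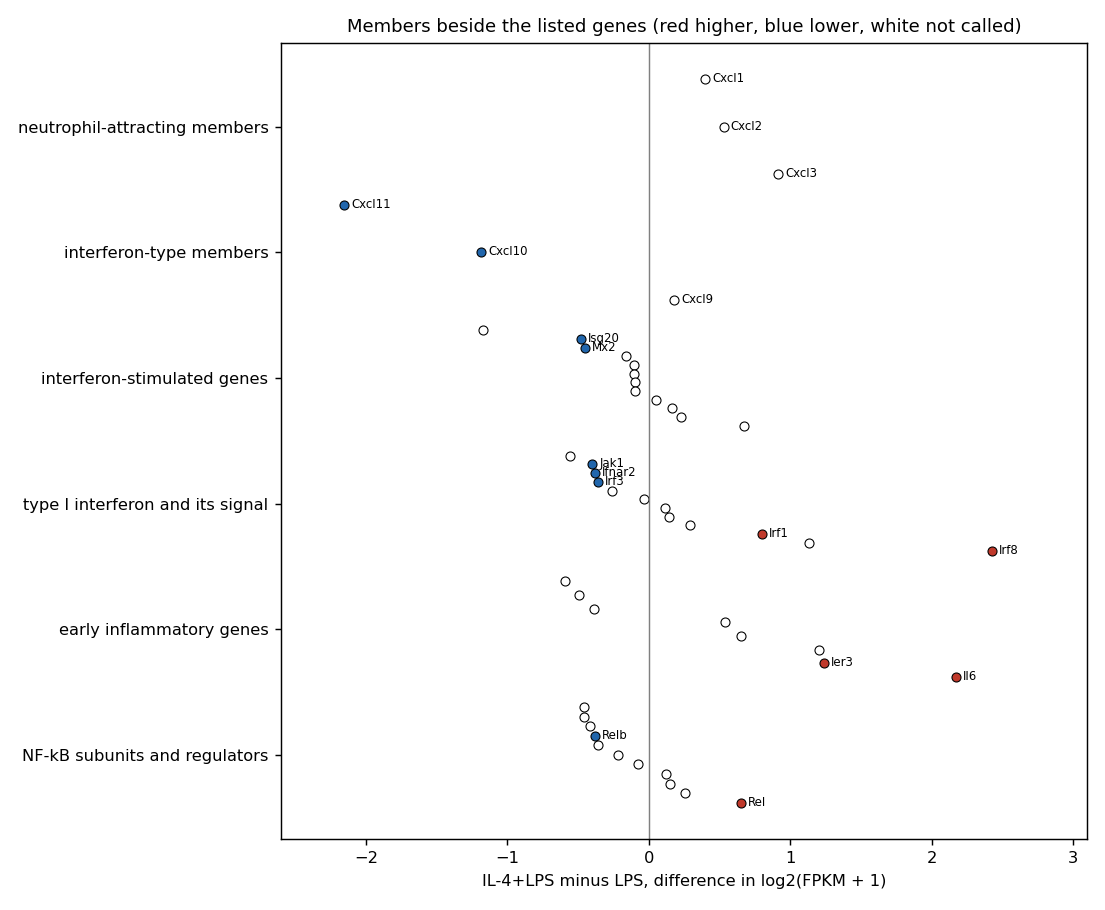
Difference between IL-4+LPS and LPS in log2(FPKM + 1) for the members of the 2 kinds and for the listed genes of their induction routes, 1 point per gene, red where called higher, blue where called lower and white where not called over all 12 samples. Cxcl11 lies furthest to the left of all points, Cxcl10 beside a single uncalled interferon-stimulated gene, and Irf8 and Il6 lie furthest to the right.

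The 2 kinds also differ in their transcripts. ATTTA, the word of AU-rich elements by which proteins such as tristetraprolin (Zfp36) mark mRNA for decay, occurred 7 times in the 3′ untranslated region of Cxcl1, 11 times in Cxcl2 and 5 times in Cxcl3. Per kilobase that is 11.8, 15.0 and 7.75, higher than in 99.1, 99.6 and 97.3% of 20725 mouse coding genes, whose median is 1.16. Cxcl9, Cxcl10 and Cxcl11 had 3, 2 and 1 copies, or 1.22, 2.74 and 0.821 per kilobase, and none held the longer word TATTTAT, which 26.1% of genes hold. Zfp36 rose with LPS (difference 2.29, adjusted p = 3.9e-05) and was not called between IL-4+LPS and LPS (-0.21, adjusted p = 0.643). Its relatives Zfp36l1 and Zfp36l2 fell with LPS (differences of -3.68 and -3.95) and were higher after the pretreatment than in LPS alone by 1.22 and 1.85 (adjusted p of 0.00458 and 0.00016). mRNA stability was not measured in these samples.

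Reads could be shared between members to a small degree only. Of the words of 50 bases in the transcript of Cxcl3, 6.31% also occurred in Cxcl2, and 3.37% of those of Cxcl2 occurred in Cxcl3, while Cxcl1, Cxcl10, Cxcl14 and Cxcl16 shared none with another gene. Cxcl9 and Cxcl11 shared 0.493 and 0.240% of theirs. Cxcl2 and Cxcl3 carry a small uncertainty for this reason.

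Patterns most like each member were sought among all expressed rows by Pearson's r of log2(FPKM + 1) over the 12 samples, a description that mostly reflects the presence of LPS. The nearest to Cxcl1 was Cxcl3 (r = 0.997), followed by Tnf and Nfkb1. Cxcl3 was nearest to Ptgs2 (r = 0.998), the inducible cyclooxygenase, and to Il27. For Cxcl10 they were Slfn4 (r = 0.999), Peli1 and Slfn2, of which Peli1 had mean FPKM of 114 in LPS and 81.7 in IL-4+LPS. Cxcl11 was nearest to Nox1 (r = 0.990), a superoxide-producing oxidase with means of 0.119, 0.0613, 6.91 and 0.482 FPKM in the order control, IL-4, LPS alone and both, which are close to the levels of Cxcl11. Cxcl2 was nearest to Tap1 (r = 0.997), followed by Helz2 and Mtmr14. Cxcl9 was nearest to Gbp6, Cxcl16 to Marf1 and Cxcl14 to Cep290 (r = 0.977), the lowest r among the 8 nearest rows.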

How the data were processed

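Poly-A selected mRNA of 12 macrophage samples was sequenced as paired reads. The submitters' processing notes name TopHat2 2.0.7, Cufflinks 2.0.2 and mm10, and the annotation is not given in the sources used here. The authors deposited 1 table of FPKM values per sample with replicates kept apart. Fragment counts were not analysed here, so absolute depth is unknown and no counting intervals are given. The libraries do not mark strand.

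Tables were joined on symbol, locus and start site. Rows with at least 1 FPKM in at least 1 sample (11191 of 23847) were taken as log2(FPKM + 1) into a group-means model over the 12 samples with limma 3.58.1 (R 4.3.3, eBayes with an intensity trend). All tests were two-sided, with Benjamini-Hochberg adjustment over all rows of a contrast and a threshold of 0.05. The pseudocount of 1 understates the change of low genes. The fit was tested on simulated data with independent noise in each sample, which does not cover the likeness between same-numbered samples. The members and all gene lists were chosen with earlier results of these data known, and lists are described by counts. All 8 members were reported in every contrast, listed genes where their role is stated, and rows from the 3 most like each member. Promoters are RefSeq sequences, and untranslated regions come from GENCODE vM21, with 1 transcript per gene. Alternatives were other pseudocounts, filters, scalings, tests, a replicate block and samples left out. Figures were drawn with matplotlib 3.10.9.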

Additional observations from a re-analysis of the deposited data

Results flagged for a closer look

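For 3 members the response to LPS differed between cells with and without IL-4 pretreatment by the test of the difference itself. Cxcl2, a ligand of the neutrophil receptor CXCR2, had a response larger by 2.19 log2 after IL-4 (adjusted p = 0.0116), with means of 4.93 and 890.2 FPKM before and after LPS alone and 0.902 and 1379 FPKM in pretreated cells. Cxcl16, the membrane-bound ligand of CXCR6, had a response larger by 1.52 (adjusted p = 0.00139), and in both genes IL-4 alone had been followed by a lower level. Cxcl11, a ligand of CXCR3 annotated as a polymorphic pseudogene in this strain, had a difference of -2.13 (adjusted p = 3.08e-05), with all 3 IL-4 samples listed at 0. The 3 calls held in each of the 12 fits that leave out 1 sample, with ranges of 1.97 to 2.61 for Cxcl2, 1.40 to 1.72 for Cxcl16 and -2.23 to -2.01 for Cxcl11.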

How the results depend on the processing

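The 7 calls for LPS against control and the 7 for IL-4+LPS against IL-4 held in all alternatives run, except that Cxcl11 fell under a 2-fold minimum in the second. For IL-4+LPS against LPS, 2 members were called, but 1 with a pseudocount of 0.1, without the filter on low values or with a per-gene Tukey test, in each of which Cxcl10 was lost (adjusted p of 0.0992, 0.09 and 0.069, the last not adjusted over genes). The count ran from 1 to 4 when 1 sample was left out and was 7 with the samples numbered 1 left out. Leaving those out also raised the count for IL-4 against control from 2 to 4 and that of the interaction from 3 to 6. There 21.0% of all rows were called higher and 25.9% lower for IL-4+LPS against LPS. The shares were 21.5 and 29.4% for IL-4 against control, and 13.2 and 12.4% for the interaction. Fewer samples went into that fit, and why it calls more was not tested. The mean balance of the 2 kinds went from 0.57 to 1.66 in control and from 0.16 to 1.09 in IL-4 with a pseudocount of 0.1, which weighs values near 0 more.

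Directions that turned were of differences that did not pass. Cxcl14 turned under quantile normalisation (0.059 for LPS against control and 0.076 for IL-4+LPS against IL-4), and Cxcl10 in the interaction with a pseudocount of 0.1 (0.013). With 1 sample left out, Cxcl3 ran from -0.33 to 0.066 for IL-4 against control and Cxcl10 from -0.74 to 0.10 in the interaction. Cxcl14 ran from -0.48 to 0.0052 for IL-4 against control, -0.48 to 0.034 for IL-4+LPS against IL-4, -0.27 to 0.13 for IL-4+LPS against LPS and -0.081 to 0.44 in the interaction.

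Deviations from the group means were more alike between same-numbered samples than between others. Between same-numbered samples r was 0.124 on average and over 0.1 in 11 of 18 pairs. Over the 36 pairs that differed in number and group it was -0.060 on average. Of the 12 samples 9 correlated best with their own number. This is a hint from the data and not from the design. With the replicate block the member counts were 8, 2, 8, 2 and 3 in the order LPS against control, IL-4 against control, IL-4+LPS against IL-4, IL-4+LPS against LPS and interaction, since Cxcl14 was then called lower at -0.40 and -0.26 in the first and the third. In that fit the shares of all rows called higher and lower were, in the same order, 19.4 and 62.7%, 21.5 and 28.4%, 17.2 and 64.4%, 20.4 and 23.8%, and 10.2 and 9.78%.

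Of the 40 counts over the other gene lists, 13 stayed within 1.5 times in all alternatives. The ranges for IL-4+LPS against LPS were 0 to 4 of 12 interferon-stimulated genes, 1 to 8 of 12 interferon signal genes, 0 to 8 of 11 NF-kB genes and 1 to 5 of 8 early inflammatory genes. Of all rows, 15.0% were called higher and 15.8% lower with all samples. These shares were 21.0 and 25.9% with the samples numbered 1 left out. Low members are limited by depth, which is lowest in the samples numbered 1.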
